A study of Mus musculus with 48 samples.

Results

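Branched-chain amino acid (BCAA) catabolism was followed through 10 genes that were chosen by name: Bcat2, Bckdha, Bckdhb, Dbt, Bckdk, Ppm1k, Ivd, Mccc1, Pcca and Hibadh. The choice was made with earlier results of these data known. All 10 were found among the 54532 genes of the count table, and all 10 were among the 19977 genes with enough reads to be tested. RNA from the inguinal subcutaneous white fat depot (iWAT, here sWAT) of C57BL/6 mice, 8 months old by the labels and male and C57BL/6J by the study's methods, had been sequenced in 48 libraries. The 24 ad-lib (AL) libraries came from mice with food at all hours, and the 24 twice-a-night (TAN) libraries from mice whose food, for 6 months, was offered in windows of 2 hours starting at 9 p.m. and 5 a.m. Both diets used the same regular chow and no genetic change, and each was sampled at 8 AM, 12 PM, 4 PM, 8 PM, 12 AM and 4 AM with 4 libraries per diet and time. The series text calls the material stromal vascular cells of the depot, whereas the study's methods describe whole tissue, and adipocyte transcripts were abundant in every library (Adipoq, the adipocyte hormone adiponectin, was at 551 CPM in the lowest library).

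Leucine, isoleucine and valine are first transaminated to branched-chain keto acids, which the mitochondrial branched-chain keto acid dehydrogenase (BCKDH) then decarboxylates irreversibly. A kinase switches BCKDH off by phosphorylation and a phosphatase switches it on again, after which separate enzymes carry the leucine, isoleucine and valine carbons to acetyl-CoA and succinyl-CoA. Adipocytes are known to use this pathway heavily as they mature, and the carbons feed lipogenesis and the tricarboxylic acid cycle. Transcript levels do not show enzyme activity, and the phosphorylation state of BCKDH was not measured here.

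The promoters of 3 members are shown, since the transcripts of the BCKDH kinase and phosphatase took opposite signs under TAN at 4 PM and 12 AM and Mccc1 was among the most variable members. Each runs 5′ to 3′ on the gene's own strand, from 250 bases before to 50 bases after a RefSeq start site (build GRCm38.p6). Capitals mark CCAAT, the box bound by NF-Y, and AGGTCA, the nuclear receptor binding core, on either strand. The Bckdk promoter lies at chr7:127903823-127904122 (plus strand), that of Ppm1k at chr6:57535438-57535737 (minus strand) and that of Mccc1 at chr3:36000629-36000928 (minus strand).
Bckdk: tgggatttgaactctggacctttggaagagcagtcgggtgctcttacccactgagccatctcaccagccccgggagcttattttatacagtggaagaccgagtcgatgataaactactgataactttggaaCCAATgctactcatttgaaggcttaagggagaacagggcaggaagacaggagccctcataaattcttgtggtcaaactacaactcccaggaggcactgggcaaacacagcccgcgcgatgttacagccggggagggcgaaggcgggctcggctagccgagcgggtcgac
Ppm1k: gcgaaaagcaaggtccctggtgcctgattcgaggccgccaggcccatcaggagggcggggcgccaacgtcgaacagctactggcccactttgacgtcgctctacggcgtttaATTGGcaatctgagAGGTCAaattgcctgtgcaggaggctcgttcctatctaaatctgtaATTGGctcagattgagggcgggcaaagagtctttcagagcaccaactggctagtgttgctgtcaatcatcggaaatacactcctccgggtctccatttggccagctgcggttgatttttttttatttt
Mccc1: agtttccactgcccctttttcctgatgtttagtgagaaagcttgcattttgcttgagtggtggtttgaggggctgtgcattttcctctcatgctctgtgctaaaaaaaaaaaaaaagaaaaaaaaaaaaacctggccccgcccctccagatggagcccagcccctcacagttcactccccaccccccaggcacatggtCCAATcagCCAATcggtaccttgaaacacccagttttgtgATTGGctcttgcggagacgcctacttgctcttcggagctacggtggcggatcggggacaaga

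Bckdk held 1 CCAAT, Ppm1k held 2 CCAAT and 1 AGGTCA, and Mccc1 held 3 CCAAT. Of the 12 promoter entries found for 9 of the members, 9 held a CCAAT, against 37.4% of all 32851 promoters in the table, and 5 held an AGGTCA, against 16.3%. The circadian E-box CACGTG (7.15% of all promoters), TCAAGGTCA, the extended core read by ERR receptors, which contains AGGTCA (0.423%), TTATGTAA, a D-box sequence (0.938%), and GCATGCGC, the NRF1 sequence (2.71%), were in none of the 12. These matches describe letters in short windows and no binding was measured.

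Total counts ran from 15636378 to 29913310 per library in AL and from 15685080 to 25440243 in TAN, so that even the lowest count of any member, 318 reads for Ppm1k, lay well above the filter of 10 reads. Levels are given as CPM (read counts scaled to library size) adjusted by TMM factors, and as CPM per kilobase of the deposited gene length where genes are compared. Libraries differed in their levels of cell type markers. The sum of 10 lymphocyte markers ran from 10.04 to 2556 CPM, and the sum of 10 adipocyte markers ran from 5100 to 56487 CPM. Skeletal muscle markers reached 6987 CPM in the third AL library at 4 AM. In these bulk samples fewer cells of a type and less RNA per cell cannot be told apart. The labels do not say that the 4 libraries of a group came from separate animals, so p-values measure the spread between libraries. In the study's supplementary FPKM table, each of the 48 libraries matched best over 979 genes a column with the same animal name and a time 12 hours from its count-table label. Each comparison of TAN with AL at 1 time holds the same libraries under either labelling. The clock time of each peak named here, however, rests on the labels of the count table.

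Per kilobase, the members spanned a wide range of levels. Ivd, the isovaleryl-CoA dehydrogenase of leucine breakdown, was highest at 67.0 ± 21.5 CPM per kb (SD over 48 libraries). Bcat2, the mitochondrial branched-chain aminotransferase that opens the pathway, followed at 56.4 ± 18.9 CPM per kb. Bckdhb stood at 47.2 ± 18.3, Hibadh at 39.4 ± 16.4, Dbt at 37.1 ± 12.9, Bckdha at 29.9 ± 11.3, Bckdk at 26.9 ± 7.33, Pcca at 23.7 ± 8.63 and Mccc1 at 15.7 ± 5.33 CPM per kb. Ppm1k, the mitochondrial phosphatase that activates BCKDH, was lowest at 6.65 ± 1.22 CPM per kb, and its highest library, at 9.39 CPM per kb, lay below the lowest library of Bckdk, at 15.9 CPM per kb. Mccc1 and Ppm1k, the last 2 in this order, differed by more than the larger of their SDs. In every other pair of neighbours the means differed by less than the larger of their 2 SDs. The authors' mean FPKM values ranked the 10 genes in the same order. Of the members, Ppm1k and Bckdk varied least, with 2.57-fold and 2.79-fold between the lowest and highest of all 48 libraries, and Dbt and Mccc1 varied most, with 11.8-fold and 11.03-fold.

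**Figure D1:**
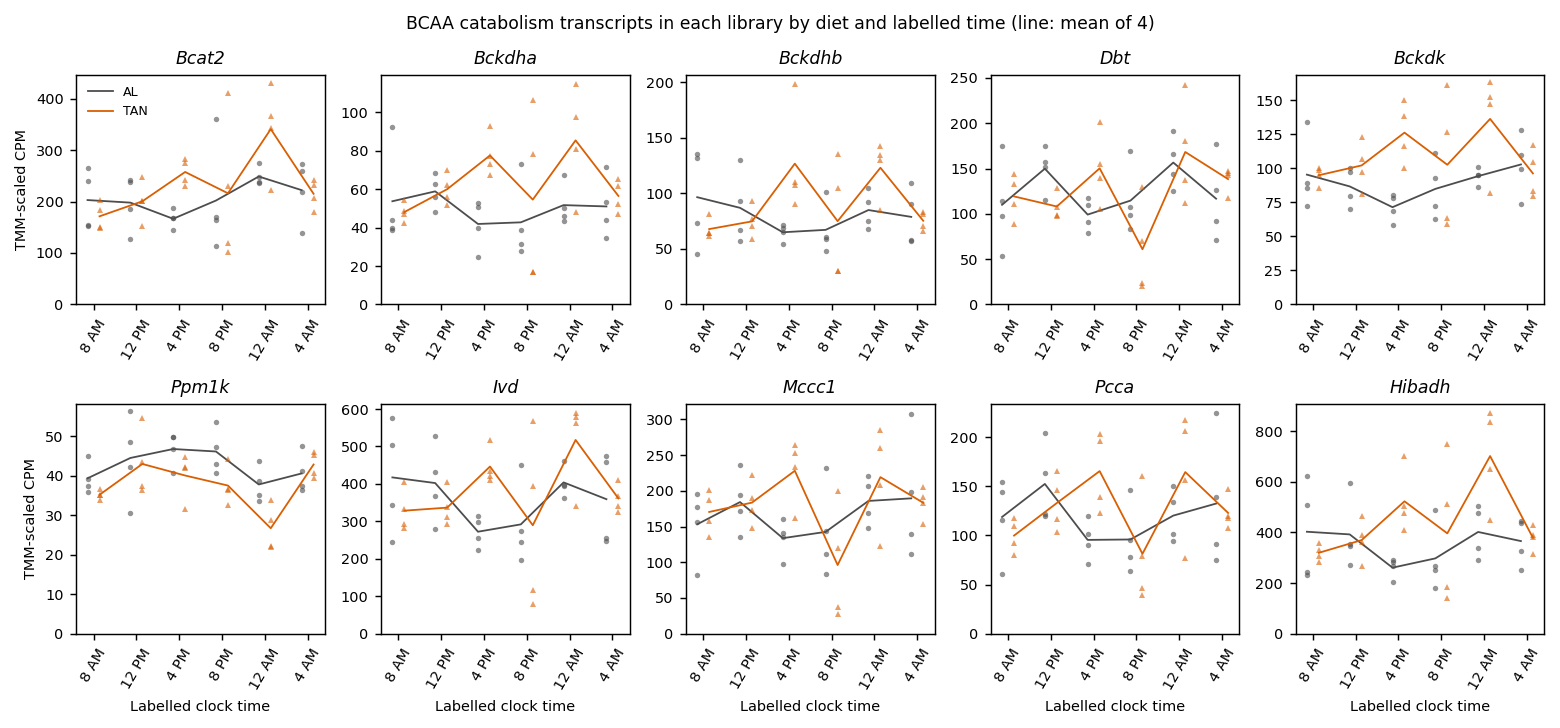
Level of each of the 10 genes in TMM-scaled CPM (y axis, from 0) at the 6 labelled times (x axis), with 1 point per library, AL as circles and TAN as triangles, and lines through the means of 4 libraries. In TAN, 9 of the genes have 4 PM means above AL, Ppm1k lies below AL at 12 AM, and the 4 TAN libraries of 8 PM split widely.

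At 4 PM, 9 of the 10 members had higher fitted levels in TAN than in AL, and 1, the BCKDH kinase gene Bckdk, passed the test. Adjusted p comes from quasi-likelihood tests in edgeR, corrected by Benjamini-Hochberg over all 19977 genes, and a gene is called under 0.05. Of all genes, 15.3% were called at 4 PM, and 6.54% were called as higher in TAN, so that 1 of 10 is close to the background. At an unadjusted p under 0.05, 8 members were higher and 0 lower, against 13.8% of all genes higher. The same number of members, 8, had every TAN library above every AL library, against 12.8% of all genes. Since the members were chosen with earlier results of these data known, these shares beside those of all genes are descriptions. The median log2 fold change was 0.78 over the members and −0.09 over all genes.

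Bcat2 (ENSMUSG00000030826, chromosome 7, 45570153 to 45589711, plus strand) had 283, 243, 275 and 230 CPM in the 4 TAN libraries of 4 PM and 144, 168, 187 and 167 CPM in the AL libraries. All TAN libraries lay above all AL libraries, and the log2 fold change was 0.63 ± 0.30 (SE), with an adjusted p of 0.141. AL group means ran from 167 CPM at 4 PM to 249 CPM at 12 AM, and TAN means from 171 CPM at 8 AM to 341 CPM at 12 AM.

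The BCKDH core is made of the E1 subunits encoded by Bckdha and Bckdhb, which decarboxylate the keto acid, and the E2 transacylase encoded by Dbt. Bckdha (ENSMUSG00000060376, chromosome 7, 25629946 to 25658981, minus strand) had 73.0, 67.5, 92.7 and 77.1 CPM in TAN at 4 PM and 39.5, 52.8, 24.7 and 50.5 CPM in AL. These groups did not overlap, and the log2 fold change was 0.89 ± 0.38, with an adjusted p of 0.0910. Bckdhb (ENSMUSG00000032263, chromosome 9, 83925145 to 84124240, plus strand) had 198, 90.2, 110 and 108 CPM in TAN and 68.5, 65.1, 54.7 and 71.5 CPM in AL. The first TAN library stood well above the other 3, yet all 4 were above AL, and the log2 fold change was 0.96 ± 0.35 with an adjusted p of 0.0531. Dbt (ENSMUSG00000000340, chromosome 3, 116513070 to 116549981, plus strand) overlapped between the diets, with 155, 140, 105 and 202 CPM in TAN and 91.4, 110, 78.6 and 117 CPM in AL. Its log2 fold change was 0.60 ± 0.36 and its adjusted p 0.242. Bckdha shares 5155 bases with B3gnt8 on the opposite strand, at a median of 10.2 CPM against 55.5 for Bckdha, and whether the counting used strand is not given in the sources used here.

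Bckdk (ENSMUSG00000030802, chromosome 7, 127904082 to 127910221, plus strand) encodes the kinase that inactivates BCKDH. At 4 PM it had 101, 116, 150 and 138 CPM in TAN and 78.4, 80.1, 58.7 and 68.7 CPM in AL. Bckdk rose 1.77-fold in TAN, without overlap, with a log2 fold change of 0.82 ± 0.24 and an adjusted p of 0.0242. The call held in 4 of the 8 fits that left out 1 library of 4 PM, where adjusted p ran from 0.0325 to 0.0876. It was lost without AL library 3 (0.0876), AL library 4 (0.0576), TAN library 3 (0.0619) or TAN library 4 (0.0526).

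Ppm1k (ENSMUSG00000037826, chromosome 6, 57506502 to 57535468, minus strand), whose product removes the phosphate that Bckdk adds, was the 1 member with a lower fitted level in TAN at 4 PM. Its TAN libraries had 44.8, 42.1, 31.5 and 41.9 CPM and its AL libraries 49.9, 40.6, 46.9 and 49.8 CPM. The groups overlapped, with a log2 fold change of −0.22 ± 0.16 and an adjusted p of 0.354.

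The 4 downstream enzymes all had higher fitted levels in TAN at 4 PM. Hibadh, which oxidises 3-hydroxyisobutyrate on the valine branch (ENSMUSG00000029776, chromosome 6, 52546228 to 52640389, minus strand), had 700, 410, 506 and 476 CPM in TAN at 4 PM and 281, 290.0, 205 and 267 CPM in AL. Its log2 fold change of 1.004 ± 0.36 was the largest of the 10, and its adjusted p of 0.0501 lay just over the threshold. Ivd (ENSMUSG00000027332, chromosome 2, 118861954 to 118882909, plus strand) had 518, 410.5, 436 and 422 CPM in TAN and 255, 314, 222 and 298 CPM in AL, with a log2 fold change of 0.71 ± 0.35 and an adjusted p of 0.144. These 2 genes had no AL library as high as any TAN library.

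Mccc1, the biotin-carrying subunit of methylcrotonyl-CoA carboxylase on the leucine branch (ENSMUSG00000027709, chromosome 3, 35959312 to 36000678, minus strand), had 253, 233, 162 and 264 CPM in TAN at 4 PM and 141, 161, 97.6 and 136 CPM in AL. The lowest TAN library lay only just above the highest AL library, and the log2 fold change was 0.77 ± 0.37 with an adjusted p of 0.141. Pcca, the biotin-carrying subunit of propionyl-CoA carboxylase (ENSMUSG00000041650, chromosome 14, 122534324 to 122891100, plus strand), had 196, 139, 123 and 203 CPM in TAN and 102, 119, 70.5 and 90.2 CPM in AL. Its groups also did not overlap, and the log2 fold change was 0.79 ± 0.35 with an adjusted p of 0.103. Pcca shares 74878 bases with Ggact on the opposite strand, at a median of 16.4 CPM against 122 for Pcca.

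**Figure D2:**
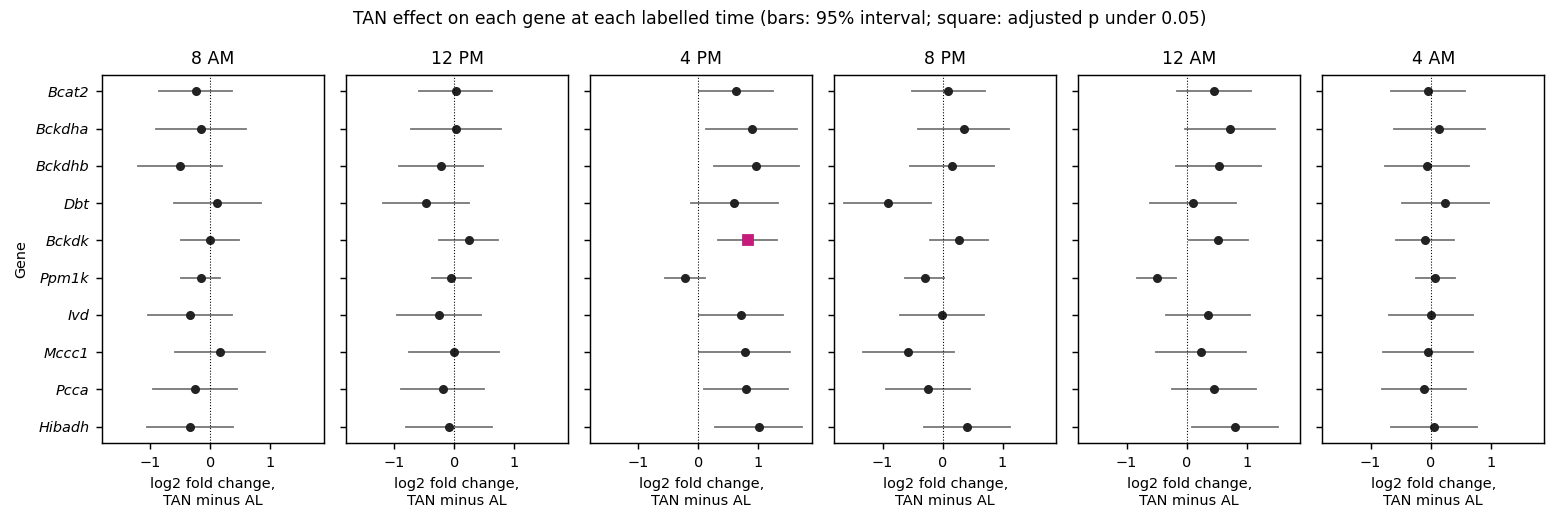
Log2 fold change of each gene, TAN minus AL (x axis), with its 95% interval from the 12-group edgeR fit, in 1 panel per labelled time, where a square marks an adjusted p under 0.05. The 1 square is Bckdk at 4 PM; the 9 other genes at 4 PM and all 10 genes at the other 5 times are circles.

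The cell type marker levels of the 4 PM libraries moved with the diets. The adipocyte sum was 30815 to 56487 CPM in TAN and 12409 to 20603 CPM in AL, and all 10 adipocyte markers had higher fitted levels in TAN, of which 1 was called. The lymphocyte sum was 11.1 to 366 CPM in TAN and 1127 to 1974 CPM in AL, and all 10 lymphocyte markers were lower at an unadjusted p under 0.05, of which 4 were called. None of these markers was at 0 in all 4 libraries of a group. Without AL and TAN libraries of like composition at 4 PM, the part of composition in the 4 PM differences cannot be told apart from that of diet: of the libraries with a lymphocyte sum of at least 500 CPM, 4 were AL and 0 were TAN. With the mean lymphocyte marker level as a covariate, 0 members and 0 of the 19977 genes were called, the log2 fold change of Bckdk was 0.38 (adjusted p = 0.486), and Dbt, Mccc1 and Pcca took negative values. With the adipocyte markers as the covariate, 0 members were called and Bckdk stood at 0.45 (adjusted p = 0.0971). A fit to the 8 libraries of 4 PM alone called 8 members and 4408 of 16196 genes.

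**Figure D3:**
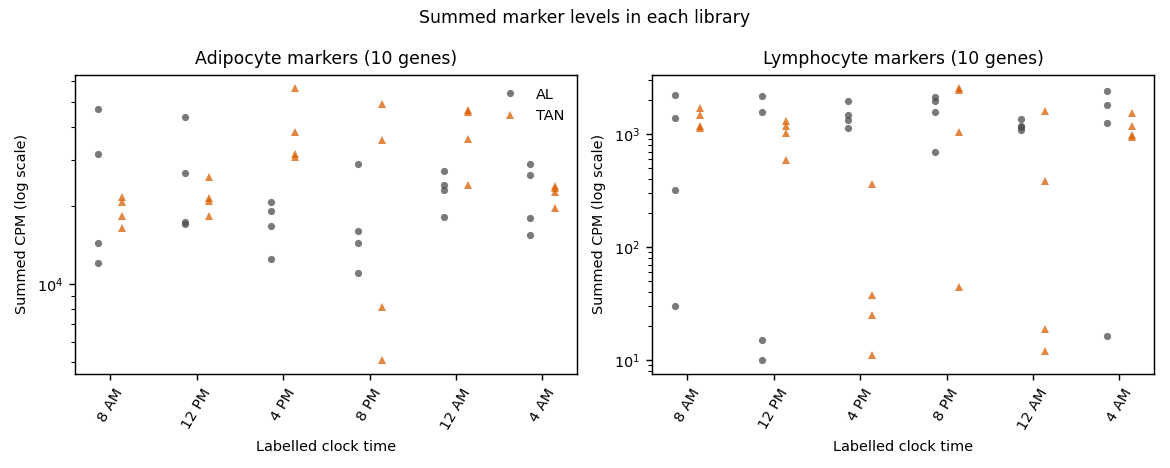
Summed CPM of 10 adipocyte markers (left) and 10 lymphocyte markers (right) in each library, on log y axes, by labelled time, with AL as circles and TAN as triangles. At 4 PM the TAN libraries hold 11.1 to 366 CPM of lymphocyte markers and the AL libraries 1127 to 1974 CPM, while at 8 PM the TAN libraries spread over both ends of the adipocyte sum.

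Of 19 other genes of the pathway, mostly enzymes and all tested, 18 had higher fitted levels in TAN at 4 PM and 1 lower. The exception, named after its value was seen, was the cytosolic aminotransferase Bcat1 (log2 fold change −0.09, adjusted p = 0.900). Of the 19, 10 were called higher in TAN and 0 lower, against 15.3% of all genes called in either direction, and their median log2 fold change was 0.94. At each of the other 5 times 0 of the 19 were called, against at most 11.7% of all genes, at 8 PM. This list too was chosen with earlier results of these data known, so its share is a description. The 5 named by smallest adjusted p did not overlap between the diets at 4 PM. Hsd17b10, the isoleucine-branch dehydrogenase, was at 151 to 275 CPM in TAN and 60.7 to 110 CPM in AL (log2 fold change 1.19 ± 0.30, adjusted p = 0.0128). Dld, the E3 subunit that BCKDH shares with pyruvate dehydrogenase, was at 371 to 666 CPM in TAN and 183 to 238 CPM in AL (1.199 ± 0.32, adjusted p = 0.0160). Mcee, the methylmalonyl-CoA epimerase, was at 27.2 to 73.4 CPM in TAN and 17.4 to 21.8 CPM in AL (1.25 ± 0.36, adjusted p = 0.0212). These 3 genes had the smallest adjusted p of the list. Mccc2, the partner subunit of Mccc1, was at 168 to 239 CPM in TAN and 73.4 to 116 CPM in AL (0.99 ± 0.30, adjusted p = 0.0254). Acad8, the isobutyryl-CoA dehydrogenase of the valine branch, was at 59.97 to 86.9 CPM in TAN and 34.4 to 46.0 CPM in AL (0.88 ± 0.27, adjusted p = 0.0299). Under the lymphocyte covariate none of these calls held, since no gene at all was called at 4 PM.

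Of 6 transporters and regulators, 1 was called higher and 1 lower at 4 PM, against 15.3% of all genes called in either direction. Slc7a5, the light chain of the LAT1 transporter that brings BCAAs into cells, fell in TAN, with 2.05 to 5.32 CPM against 9.69 to 19.3 CPM in AL (log2 fold change −2.08 ± 0.58, adjusted p = 0.0192). Klf15, a transcription factor known to induce BCAA enzymes, was called higher (1.26 ± 0.42, adjusted p = 0.0385) and was named after its value was seen. The 6 genes had a median log2 fold change of 0.04. At the other 5 times 0 of them were called, against at most 11.7% of all genes, at 8 PM. Neither 4 PM call held under the lymphocyte covariate, where 0 of the 19977 genes were called. This list too was chosen with earlier results of these data known, so its counts are descriptions.

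At 12 AM, which by the count-table labels falls shortly after the first feeding window, 0 of 10 members were called, against 0.150% of all genes. Of the members, 9 had higher fitted levels in TAN, with a median log2 fold change of 0.45 against −0.14 over all genes. At an unadjusted p under 0.05, 2 members were higher and 1 lower, against 1598 higher and 1894 lower of all 19977 genes. Ppm1k had 33.9, 22.2, 28.8 and 22.0 CPM in TAN and 43.8, 38.6, 35.2 and 33.7 CPM in AL. Only the first TAN library reached the AL range, and the log2 fold change was −0.50 ± 0.16 with an adjusted p of 0.142. Bckdk had 81.9, 164, 152 and 148 CPM in TAN and 94.98, 101, 86.0 and 95.2 CPM in AL. Its first TAN library lay below AL and the other 3 above it, with a log2 fold change of 0.53 ± 0.24 and an adjusted p of 0.244. Hibadh had 451, 872, 835 and 649 CPM in TAN and 477, 504, 290 and 337 CPM in AL (log2 fold change 0.80 ± 0.36, adjusted p = 0.233). The first TAN library of 12 AM was the one with a lymphocyte sum of 1615 CPM, against 12.1 to 387 CPM in the other 3 and 1087 to 1353 CPM in AL. Its adipocyte sum, at 24053 CPM, was also the lowest of the 4 TAN libraries, and the signs of several members turned when composition entered the fit. Fitted log2 fold changes turned negative for 4 members with the lymphocyte covariate (Ivd, Mccc1, Dbt and Pcca) and for 3 with the adipocyte covariate (Ivd, Mccc1 and Dbt). In libraries with at least 500 CPM of lymphocyte markers, of which 1 was TAN, they turned negative for 7 (Ivd, Bcat2, Mccc1, Dbt, Pcca, Bckdk and Bckdha), and each of these fits called 0 members.

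At 8 PM, just before the first feeding window by label, 0 of 10 members were called, against 11.7% of all genes. The median log2 fold change was 0.04 over the members and −0.10 over all genes. The 4 TAN libraries split. Libraries 1 and 2 held 8143 and 5100 CPM of adipocyte markers and 2457 and 2556 CPM of lymphocyte markers. Libraries 3 and 4 held 35614 and 49307 CPM of adipocyte markers and 1042 and 44.1 CPM of lymphocyte markers. Bckdhb, for example, had 30.01, 29.8, 105 and 135 CPM in TAN libraries 1 to 4 and 47.8, 59.1, 60.5 and 101 CPM in AL, so that TAN lay on both sides of AL.

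Dbt, the E2 subunit, had the lowest fold change of the 10 members at 8 PM. It had 24.04, 20.5, 69.6 and 130 CPM in TAN and 82.8, 108, 99.2 and 169 CPM in AL, with a log2 fold change of −0.91 ± 0.36 and an adjusted p of 0.0854. Of the 4 TAN libraries, 3 were below every AL library. The value grew when composition entered the fit, to −1.01 with the adipocyte covariate (adjusted p = 0.000829) and to −1.25 with the lymphocyte covariate (adjusted p = 0.00321). Among the 3 TAN and 4 AL libraries with at least 500 CPM of lymphocyte markers it was −1.55 (adjusted p = 0.00114). At 8 PM this set left out only TAN library 4, which had the highest Dbt level of the TAN libraries. The fit to this set called 4866 of 23581 genes at 8 PM. In this set TAN libraries 1 and 2 still lay below the AL range of 11016 to 28824 CPM in adipocyte markers. Mccc1 had 27.9, 37.7, 120 and 199 CPM in TAN and 82.9, 143, 112 and 232 CPM in AL, with a log2 fold change of −0.57 ± 0.37 and an adjusted p of 0.338. It too was called lower with the adipocyte covariate, at −0.63 (adjusted p = 0.0109), and with the lymphocyte covariate, at −0.92 (adjusted p = 0.0185). These fits called 5053 and 3884 of all 19977 genes at 8 PM, so calls were common in them. Leaving out the fourth TAN library, which had 44.1 CPM of lymphocyte markers, from the reported fit gave −1.58 for Dbt (adjusted p = 0.00291) and −1.198 for Mccc1 (adjusted p = 0.0250). At 8 PM this was the same omission as in the set with at least 500 CPM, so these 2 fits are not separate checks. The composition of the libraries at 8 PM and the diet cannot be fully told apart.

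At 8 AM, 12 PM and 4 AM, 0 of 10 members were called, against 0.0150%, 0.0901% and 0% of all genes. At 4 AM no gene was called at all, although 527 had an unadjusted p under 0.05. Median log2 fold changes of the members were −0.20, −0.07 and −0.02, against 0.01, 0.04 and 0.00 over all genes. No member had an unadjusted p under 0.05 at these times, against 1314, 1473 and 527 of all 19977 genes. Bckdhb at 8 AM (−0.51 ± 0.35, adjusted p = 0.842) and Dbt at 12 PM (−0.47 ± 0.36, adjusted p = 0.855) had the largest values, and all 30 pairs of groups overlapped.

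Over the day as a whole, 0 of 10 members were called for the mean TAN effect, against 5.42% of all genes. Bckdk came nearest, with a mean log2 fold change of 0.29 ± 0.10 and an adjusted p of 0.0679, followed by Ppm1k with −0.19 ± 0.07 and an adjusted p of 0.0777. Leaving out 1 of 6 libraries brought Bckdk, and 1 of 2 brought Ppm1k, past the threshold. The kinase transcript was thus higher and the phosphatase transcript lower in TAN on average, neither past the threshold. Both also had an unadjusted p under 0.05, as did Bckdha (0.33 ± 0.15) and Hibadh (0.31 ± 0.15), whereas Dbt stood at −0.05 ± 0.15. Of all 19977 genes, 4289 had an unadjusted p under 0.05 for the mean effect. The TAN effect differed between times for 0 of 10 members, against 8.98% of all genes. None had an unadjusted p under 0.05, against 6036 of all 19977 genes, and the lowest adjusted p was 0.179 for Bckdhb.

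The kinase and phosphatase transcripts were also compared within each library as the ratio of Bckdk to Ppm1k per kilobase, a description chosen with their values known and given without a test. At 4 PM the ratio was 3.66, 4.49, 7.78 and 5.37 in TAN and 2.56, 3.21, 2.04 and 2.25 in AL, without overlap. At 12 AM it was 3.94, 12.0, 8.62 and 10.9 in TAN and 3.53, 4.27, 3.99 and 4.61 in AL, so that 3 TAN libraries lay above AL and the first lay among it. In the other 4 comparisons the diets overlapped. At 8 PM the ratio was 3.15, 2.64, 5.67 and 5.92 in TAN libraries 1 to 4 and 2.21 to 3.85 in AL. TAN libraries 1 and 2 of 8 PM were the 2 low in adipocyte markers. At 4 PM the adipocyte and lymphocyte sums of the diets did not overlap. The part of composition in this ratio was not tested. The ratio of Dbt to Bckdha, the E2 transcript to that of an E1 subunit, is also given without a test. It was 0.816, 0.687, 0.504 and 0.691 in TAN at 8 PM and 1.68, 1.57, 1.80 and 1.32 in AL. These groups did not overlap. TAN libraries 1 and 2 differed greatly from 3 and 4 in adipocyte markers, and the part of composition in the ratio of Dbt to Bckdha was not tested. At 12 PM the same ratio was 0.886 to 1.09 in TAN and 1.26 to 1.59 in AL, again without overlap, and it overlapped at the other 4 times. The ratio of Dbt to the other E1 transcript, Bckdhb, was not computed. Bckdhb to Bckdha overlapped at 8 PM (1.34 to 1.89 in TAN, 1.46 to 2.04 in AL) and 12 PM (1.19 to 1.44 in TAN, 1.25 to 1.99 in AL).

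**Figure D4:**
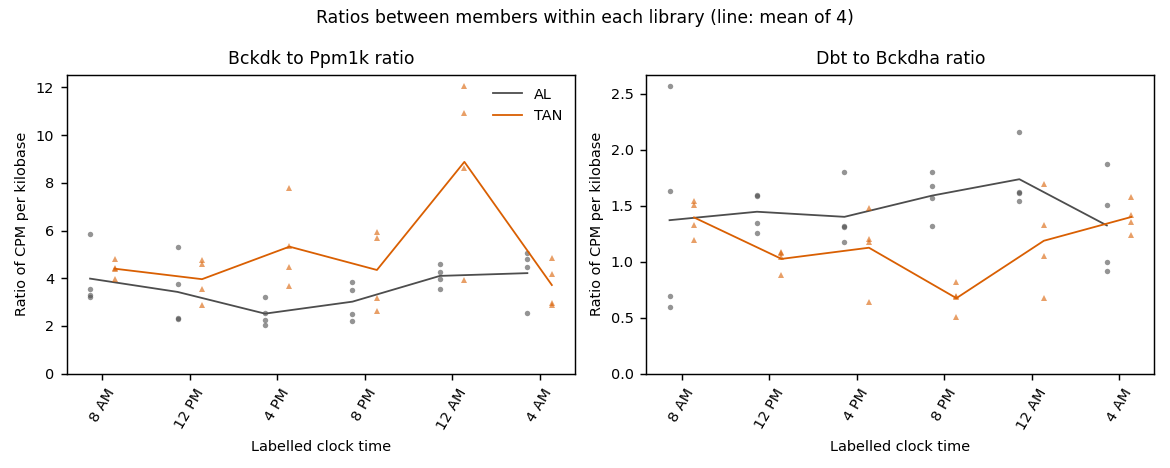
Ratio of Bckdk to Ppm1k (left) and of Dbt to Bckdha (right) in CPM per kilobase within each library (y axes, from 0) by labelled time, AL as circles and TAN as triangles, with lines through means of 4. The left ratio reaches 12.0 in TAN at 12 AM, and the right ratio in TAN at 8 PM, 0.504 to 0.816, lies below all AL libraries of that time.

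Across the day, no member was called in AL in the reported fit, where few genes of any kind were called. The widest range of AL group means among the members was 0.70 on the log2 scale, for Pcca. Level differed between times for 0 of 10 members in AL, against 0.0551% of all genes, and a 24-h harmonic was called for 0, against 0.0801%. A 12-h harmonic in AL was likewise called for 0, against 0.0150%. In AL, the group means in CPM of the 9 other members were lowest at 4 PM, whereas Ppm1k was highest at 4 PM (46.8 ± 4.32 CPM, SD, n = 4) and lowest at 12 AM (37.8 ± 4.51 CPM). On the log2 scale the AL means of Bckdha, Bckdhb and Pcca were lowest at 8 PM instead. Since no time effect was called in AL, these orders were not told apart from the spread between libraries.

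In TAN, 2 of 10 members differed between times, against 23.0% of all genes, a share near the background. Ppm1k changed over the day (adjusted p = 0.0192), with means of 35.2 CPM at 8 AM, 43.0 at 12 PM, 40.1 at 4 PM, 37.5 at 8 PM, 26.7 at 12 AM and 42.9 at 4 AM. Dbt changed as well (adjusted p = 0.0365), with means of 119 CPM at 8 AM, 108 at 12 PM, 150.3 at 4 PM, 60.9 at 8 PM, 168 at 12 AM and 138 at 4 AM. The low point of Ppm1k thus fell at 12 AM, where Dbt had its high point. The AL group means had the same order at 12 AM (37.8 CPM for Ppm1k, 157 CPM for Dbt), without a called time effect. Of the 48 fits that each left out 1 library, the call of Ppm1k held in 46 and was lost without TAN library 2 (adjusted p = 0.0843) or 4 (0.0776) of 12 AM. The call of Dbt held in 41 and was lost without TAN library 1 or 4 of 4 PM, 1, 2 or 3 of 8 PM, or 2 or 4 of 12 AM (adjusted p from 0.0502 to 0.110). Marker levels differed between the TAN times too, with mean adipocyte sums from 19186 CPM at 8 AM to 39358 CPM at 4 PM. With the adipocyte covariate both genes were called (Ppm1k, adjusted p = 0.0146, and Dbt, adjusted p = 0.00160). That fit called 4843 of all 19977 genes for time within TAN, and the part of composition in these time effects was not tested. A 24-h harmonic in TAN was called for 0 members, against 19.8% of all genes, a 12-h harmonic for 0, against 2.07%, and a difference between the diets in the 24-h harmonic for 0, against 20.2%. TAN means were highest at 12 AM for Bcat2 (341 ± 87.2 CPM), Bckdha (85.4 ± 28.5), Dbt, Bckdk (136 ± 36.9), Ivd (517 ± 119) and Hibadh (702 ± 194), and at 4 PM for Bckdhb (127 ± 48.6), Mccc1 (228 ± 45.8) and Pcca (165 ± 40.3). Of the 6 TAN groups, 8 PM had the largest SD for 7 members, such as Ivd (290 ± 233 CPM) and Hibadh (396 ± 287 CPM).

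Over the 12 group means, 9 members followed each other and Ppm1k ran against them. The median Pearson r of log2 CPM of a member with the other 9 was 0.65 to 0.86 for all but Ppm1k, whose r ranged from −0.74 (with Hibadh) to −0.18 (with Dbt). Among the members, Dbt and Mccc1 were most alike, at 0.94. Among all genes outside the list, the 3 most like Bcat2 were Nadk (0.956), Glrx3 (0.956) and Hibch (0.953), and the 3 most like Bckdha were Chp1 (0.977), Amy1 (0.977) and Idh3a (0.975). The kinase Bckdk was most like Timm50 (0.987), Acaa1a (0.986) and Taldo1 (0.985). The 12 points share libraries, depth and cell composition across genes, so these r values are descriptions and carry no p.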

How the data were processed

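Poly-A selected RNA of 48 inguinal fat libraries had been sequenced in read pairs. The authors deposited whole-number counts per gene for each library, and per-group mean FPKM columns that the authors computed, used here only for the order of the genes. Submitters' processing notes list TopHat 1.3.3, DESeq2 1.20.0, limma and edgeR, with builds mm9, mm10 and GRCm38, in no order and with no role for each. TopHat is a read aligner, and the counter and strand setting are not given in the sources used here. All 10 gene positions equal GENCODE M21 (GRCm38), and promoter sequences are from RefSeq (GRCm38.p6).

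Counts were filtered with filterByExpr (minimum count 10), scaled by TMM, and fitted with edgeR 4.0.16 as 12 groups of 4 libraries under R 4.3.3. Robust quasi-likelihood tests gave TAN minus AL at each time, their mean and their differences, and time within each diet (F test, and 24-h and 12-h harmonics). Adjusted p is Benjamini-Hochberg over all 19977 genes. Alternatives used limma voom 3.58.1, DESeq2 1.42.0, other filters and scalings, marker covariates, a replicate block and each library left out. The members and gene lists were chosen with earlier results of these data known. Genes named by rule were all 10 members, at most 6 of 25 other pathway genes by smallest adjusted p over the 6 times, and the 3 genes most like each of Bcat2, Bckdha and Bckdk. Outside this rule, Bcat1 and Klf15 of the other pathway genes were named after their values were seen. Counts and intervals from 4 libraries per group limit the precision.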

Additional observations from a re-analysis of the deposited data

Results flagged for a closer look

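Among 120 sets of 4 libraries (10 genes in 12 groups), 4 had 1 library far from the other 3 by Dixon's ratio, and chance flags about 1 set in 20. Bckdha was at 92.5 CPM in the fourth AL library of 8 AM, against 38.6 to 44.0 CPM in the others. Bckdhb was at 81.3 CPM in the second TAN library of 8 AM, against 61.4 to 64.3 CPM. Dbt was at 118 CPM in the second TAN library of 4 AM, against 143 to 147 CPM. Ivd was at 340.0 CPM in the first TAN library of 12 AM, against 563 to 589 CPM, and this library also stood apart in its lymphocyte sum, 1615 CPM.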

How the results depend on the processing

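The number of members called at 4 PM, 1 in the reported fit, was 2 with limma voom and without mitochondrially encoded genes. It was 3 with RLE factors, with at least 10 counts in every library, with the muscle covariate and with DESeq2. It was 8 in a separate fit per time point and at an unadjusted p under 0.05. It was 0 without a filter, with an added fold cut of 1 on the log2 scale, and with the lymphocyte, the adipocyte or both covariates. Calls over all genes moved too, from 3057 of 19977 to 3558 with voom, 3204 with RLE factors, 3423 with the muscle covariate and 4345 with DESeq2. They were 2816 of 11196 with at least 10 counts in every library, 4408 of 16196 in the separate fit and 1658 of 33438 without a filter. The lymphocyte, the adipocyte and both covariates gave 0, 481 and 38 of 19977. At 8 PM, 0 became 1 with voom and at an unadjusted p, and 2 with the lymphocyte, the adipocyte or both covariates. It became 3 in libraries with at least 500 CPM of lymphocyte markers, where the third was Pcca. Of all 19977 genes, 2333 were called in the reported fit, 3713 with voom, and 3884, 5053 and 5085 with these covariates. At an unadjusted p there were 5587, and the fit to libraries with at least 500 CPM called 4866 of 23581. Voom also moved the median log2 fold change of all genes at 8 PM to −0.45. At 12 AM, 3 had an unadjusted p under 0.05, against 3492 of all 19977 genes. For the mean effect, 0 became 1 (Bckdk) with at least 10 counts in every library and with DESeq2, 2 with the adipocyte covariate and 3 with both. These fits called 878 of 11196 genes, and 1536, 1967 and 1994 of 19977, against 1082 in the reported fit. For a TAN effect that differs between times, 0 became 1 (Dbt) with voom and the lymphocyte covariate, and 2 (Dbt and Mccc1) with the adipocyte or both covariates. These fits called 4439, 1209, 3016 and 2068 of all 19977 genes, against 1793 in the reported fit. For time within TAN, 2 became 4 with voom and the lymphocyte covariate, 5 with DESeq2 and 1 without a filter. These fits called 6678, 3596 and 7309 of 19977 genes, and 2972 of 33438, against 4603 in the reported fit. For the 24-h harmonic in TAN, 0 became 3 with the lymphocyte covariate, 6 with the adipocyte covariate and 5 with both. These fits called 4526, 7043 and 6156 of all 19977 genes, against 3965 in the reported fit. The fit to libraries with at least 500 CPM and the fit with both covariates were chosen after seeing the data. The cause of these changes was not tested.

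Leaving out 1 library at a time gave 0 to 2 members at 4 PM, 0 to 2 at 8 PM, 0 to 2 for the mean, 0 to 1 for a differing effect, 0 to 8 for time within TAN and 0 to 2 for the 24-h harmonic in TAN, and 0 to 0 elsewhere. The 2 at 4 PM were Bckdk and Bckdhb, without TAN replicate 2. For time within TAN, 8 came without the fourth TAN library of 8 PM and 6 without the first TAN library of 12 AM. For the mean, the libraries were AL replicate 4 of 8 AM, AL replicate 4 of 8 PM, TAN replicates 1 and 2 of 8 PM, TAN replicate 1 of 12 AM and AL replicate 3 of 4 AM for Bckdk, and AL replicate 3 of 12 PM and TAN replicate 1 of 12 AM for Ppm1k. For the 24-h harmonic, they were TAN replicates 1, 2 and 4 of 8 PM. Some signs turned. At 4 PM, Dbt was −0.162 with the lymphocyte covariate, −0.0034 with the adipocyte covariate and −0.0974 with both. Mccc1 was −0.0905 with the lymphocyte covariate and −0.0319 with both, and Pcca was −0.0792 and −0.0396 in these fits. At 12 AM, where no member was called, 4 turned negative with the lymphocyte covariate, 3 with the adipocyte covariate, 4 with both and 7 in libraries with at least 500 CPM, of which 1 was TAN, and Bckdk was −0.19 there. At 8 PM, the log2 fold change of Pcca ran from −0.795 without TAN replicate 4 to 0.0389 without AL replicate 4 when each library was left out.

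The replicate block left 1 member called at 4 PM and 2 for time within TAN, and changed no other member call. Same-numbered TAN and AL libraries correlated over 0.1 in 7 of 24 pairs (median r 0.0418, 5000 genes), so the numbers were not taken as pairs.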
